A study of Mus musculus with 8 samples.

Results

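The 10 genes followed here mark fibroblasts and adipose progenitor cells, and they were measured in brown adipose tissue, the thermogenic fat depot. They are Dpp4, Pi16, Ly6a, Cd34, Dcn, Lum, Dpt, Mfap5, Clec3b and Bst1. They were taken by gene symbol from a table of 54532 genes, and all 10 were found once each. The tissue came from 8 mouse samples in 2 groups of 4. OGTBKO tissue carried a brown adipocyte-specific knockout of Ogt, which encodes the transferase for O-GlcNAc, a sugar put on intracellular proteins, and WT tissue was wild-type. Both groups lived at 23 °C with standard chow. After 8 weeks all mice, WT included, were induced with an agent that the labels spell gomaxifen, and 2 months later the depot was taken and freed of adjoining white fat. Which promoter drives the recombinase, which exons were deleted and the sex of the mice are not given in the labels. The numbered samples are not said to be separate animals, so the p-values reflect only how far these samples differ, which may be technical.

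Fat depots hold, between the adipocytes, a stroma of fibroblast-like cells. In mouse fat these include interstitial progenitors that express Dpp4 and Pi16 and lie in the connective tissue sheath, and more committed preadipocytes among the adipocytes, and both carry Ly6a and Cd34 on their surface. The stroma also makes the collagen-binding proteoglycans decorin (Dcn) and lumican (Lum) and other matrix proteins. These are markers of cells other than the brown adipocytes in which Ogt was deleted. Some are not confined to stroma: Ly6a and Cd34 are also made by endothelial cells, and Ly6a, Dpp4 and Bst1 by blood cells. In a bulk sample fewer cells of a type and less RNA per cell cannot be told apart.

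Although the labels give adipocytes as the cell type, whole tissue was sequenced, and stromal transcripts were plainly present. Outside the 10 genes, the stromal receptor gene Pdgfra measured 3.19 to 5.57 FPKM in OGTBKO libraries and 3.56 to 5.84 FPKM in WT libraries (fragments per kilobase of gene, scaled for depth). The collagen gene Col3a1 measured 61.5 to 165 FPKM in OGTBKO libraries and 89.3 to 117 FPKM in WT libraries. Ogt was lower in every OGTBKO library, at 10.7 to 14.5 FPKM against 22.5 to 33.1 FPKM in WT libraries (limma adjusted p = 0.00511). Each library held 13393962 to 15897920 reads in genes. Skeletal muscle transcripts stood high in the libraries numbered 1, with 8 muscle genes summing to 1424 FPKM in OGTBKO 1 and 487 FPKM in WT 1, against 0.481 to 36.6 FPKM in the other 6.

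Of the 10 genes, 1 fell in OGTBKO tissue (Ly6a), 0 rose and 9 did not pass the test (limma on log2(FPKM + 0.5), adjusted p under 0.05). Over all 13171 genes tested, 15.6% were called, 8.11% higher and 7.46% lower, and when FPKM were scaled by the library total 9.37% were called, 7.48% higher and 1.89% lower. All 10 averaged 0.5 FPKM or more across the 8 libraries and so entered the test. Their median log2 change was -0.07, beside -0.00213 over all genes tested. In 0 of the 10 did the groups fail to overlap, where 22.5% of all genes tested had groups without overlap. In all 10 the SD of the log2 level was larger among OGTBKO libraries than among WT libraries, beside 38.4% of all genes tested.

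**Figure D1:**
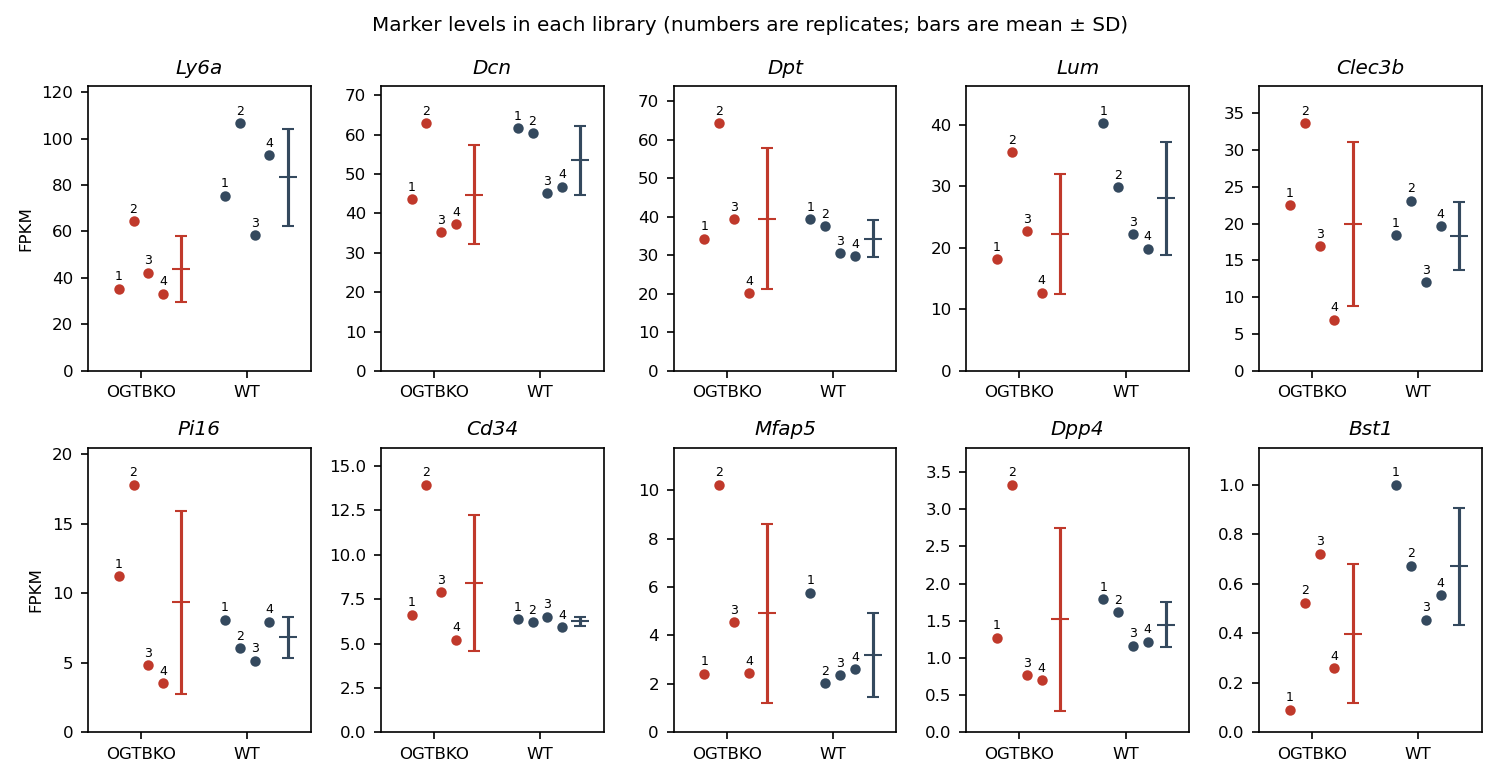
FPKM of each gene (vertical axes, each starting at 0) in the 4 OGTBKO and 4 WT libraries, with points numbered by replicate and bars giving the mean and SD. OGTBKO 2 is the highest OGTBKO library in every panel but Bst1, and for Ly6a it alone of the OGTBKO libraries lies above a WT library, WT 3.

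Ly6a encodes Sca-1, a GPI-anchored surface protein that marks stem and progenitor cells in the mouse and is inducible by interferon there. It lies on chromosome 15 from 74994877 to 74998031 on the minus strand (mm10). Ly6a measured 35.4, 64.4, 42.3 and 33.2 FPKM in OGTBKO 1 to 4, against 75.4, 107, 58.6 and 92.9 FPKM in WT 1 to 4. Of the OGTBKO libraries, 3 lay below every WT library, and OGTBKO 2 lay above WT 3, so the groups overlapped. The means were 43.8 ± 14.2 FPKM in OGTBKO and 83.4 ± 20.9 FPKM in WT tissue (SD, n = 4 each). The log2 change was -0.93 ± 0.24 (SE; 95% interval -1.48 to -0.39; limma adjusted p = 0.0333). The log2 change stayed between -1.13 and -0.80 in all 19 alternatives, but the call held in 11 of them. It ended without OGTBKO 1 (adjusted p = 0.0701), OGTBKO 3 (0.0835), OGTBKO 4 (0.0847), WT 2 (0.0916), WT 4 (0.0774) or both libraries numbered 1 (0.0878). The call also ended when FPKM were scaled by the library total (0.115) and without a filter on low values (0.0726). Without OGTBKO 2 it held, with a log2 change of -1.13 (adjusted p = 0.0206).

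Ly6a belongs to a gene cluster whose members resemble each other. Of the 1297 different stretches of 50 bases in its annotated transcripts, 246 (19.0%) also occur in transcripts of other genes, 195 of them in Ly6c1, so reads can be shared between these genes and the authors' way of counting such reads is not given. The coding sequences of Ly6a and Ly6c1 were identical at 82.0% of aligned positions. Their first 120 coding bases are shown (GENCODE M21, 1 annotated transcript of each gene, chromosome 15) because they are the most alike gap-free stretch of that length. They are more alike than the coding sequences as a whole. Capitals mark the 8 positions that differ, and the longest run without a difference is 45 bases. Of the 770 stretches of 50 bases in this Ly6a transcript, 0 occur in this Ly6c1 transcript, so the 195 shared stretches involve other annotated transcripts of these genes.
Ly6a: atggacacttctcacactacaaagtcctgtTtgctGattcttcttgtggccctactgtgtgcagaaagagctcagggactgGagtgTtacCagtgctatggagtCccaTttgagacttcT
Ly6c1: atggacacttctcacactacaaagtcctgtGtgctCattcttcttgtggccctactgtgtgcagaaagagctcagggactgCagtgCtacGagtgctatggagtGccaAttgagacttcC
Ly6c1, a surface antigen of monocytes, endothelium and interstitial progenitors in the mouse, averaged 40.3 ± 5.03 FPKM in OGTBKO and 52.2 ± 13.3 FPKM in WT tissue (log2 -0.34, 95% interval -0.77 to 0.10, limma adjusted p = 0.261). The ratio of Ly6a to Ly6c1 was 0.920 to 1.36 in OGTBKO libraries and 1.38 to 1.95 in WT libraries. Ly6c2, which also shares stretches with Ly6a, did not exceed 0.533 FPKM in OGTBKO or 0.621 FPKM in WT libraries, and Ly6i did not exceed 0.0537 FPKM in OGTBKO or 0.327 FPKM in WT libraries. Ly6e, another gene of the cluster that lies 35.0 kb from Ly6a, averaged 36.8 ± 7.17 FPKM in OGTBKO and 54.7 ± 6.66 FPKM in WT tissue (log2 -0.58 ± 0.16, adjusted p = 0.0385). Its call ended without OGTBKO 1, OGTBKO 3, OGTBKO 4, WT 2, WT 3 or WT 4 (adjusted p up to 0.102). The Ly6e call also ended without a filter on low values, with a term for replicate number, and when FPKM were scaled by the library total (0.151).

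Set against the mean of the other 9 genes of the same library, Ly6a was lower in each OGTBKO library than in any WT library. With each gene taken relative to its own mean over the 8 libraries on the log2 scale, Ly6a minus the mean of the other 9 genes was -0.61, -0.69, -0.39 and -0.13 in OGTBKO 1 to 4, against 0.04, 0.80, 0.24 and 0.75 in WT 1 to 4. The ratio of Ly6a to Dcn was 0.812 to 1.20 in OGTBKO libraries and 1.22 to 1.98 in WT libraries. The ratio of Ly6a to Cd34 was 4.61 to 6.35 in OGTBKO libraries and 8.98 to 17.2 in WT libraries. The ratio to Dpt also separated the groups, but those to Lum, Clec3b, Dpp4, Pi16, Mfap5 and Bst1 overlapped. In OGTBKO 4, for example, Ly6a stood at 33.2, Lum at 12.7 and Clec3b at 6.95 FPKM, against 75.4, 40.2 and 18.4 FPKM in WT 1. These ratios are descriptions and were not tested. Among markers of other cells that carry Ly6a, 1 of 10 endothelial genes rose (Cdh5, log2 0.35, limma adjusted p = 0.0413) and 0 fell. The Cdh5 call ended when any library but WT 3 was left out (adjusted p up to 0.0971), and also in other alternatives (limma adjusted p up to 0.149). The endothelial genes had a summed level of 171 to 182 FPKM in OGTBKO libraries and 142 to 182 FPKM in WT libraries. Of 14 leukocyte markers 9 were tested, of which 1 rose (Itgax, log2 1.48, adjusted p = 0.00425) and 1 fell (S100a8, log2 -2.43, adjusted p = 0.0372), with summed levels of 66.1 to 94.6 FPKM in OGTBKO and 50.8 to 90.9 FPKM in WT libraries. The S100a8 call ended without OGTBKO 2, OGTBKO 3, OGTBKO 4, WT 1, WT 2 or WT 4 (adjusted p up to 0.102). It also ended in other alternatives, among them the library total as denominator (0.0645). The lymphocyte genes Cd3e, Cd3g and Ms4a1 did not exceed 0.138 FPKM in any library. The part of these cells in the level of Ly6a was not tested.

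The remaining surface and progenitor markers did not pass the test, and OGTBKO 2 stood highest in 3 of these 4. Dpp4, the membrane dipeptidyl peptidase CD26 (chromosome 2, 62330073 to 62412231, minus strand), measured 1.27, 3.33, 0.766 and 0.705 FPKM in OGTBKO 1 to 4 and 1.79, 1.61, 1.17 and 1.22 FPKM in WT 1 to 4. OGTBKO 2 thus lay above every WT library while OGTBKO 3 and OGTBKO 4 lay below them all (log2 -0.11, 95% interval -0.87 to 0.66, limma adjusted p = 0.862). Pi16, a member of the CAP protein family that marks adventitial fibroblasts in the mouse (chromosome 17, 29318877 to 29329413, plus strand), measured 11.2, 17.8, 4.84 and 3.53 FPKM in OGTBKO libraries, against 8.11, 6.06, 5.16 and 7.96 FPKM in WT libraries. For Pi16, OGTBKO 1 and OGTBKO 2 exceeded all WT libraries and the other two were lower than all of them (log2 0.19, 95% interval -0.77 to 1.16, adjusted p = 0.797). Cd34, a sialomucin of progenitor and endothelial cells (chromosome 1, 194938819 to 194961279, plus strand), measured 6.63, 13.95, 7.88 and 5.23 FPKM in OGTBKO libraries, against 6.38, 6.19, 6.52 and 5.92 FPKM in WT libraries. The 4 WT libraries differed by at most 1.10-fold, whereas the highest OGTBKO library was 2.67 times the lowest (log2 0.31, 95% interval -0.23 to 0.86, adjusted p = 0.405).

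Bst1 encodes CD157, a GPI-anchored enzyme of the ADP-ribosyl cyclase family that is found on stromal and myeloid cells (chromosome 5, 43818885 to 43843986, plus strand). It was the lowest of the 10, with 5, 28, 43 and 12 reads in OGTBKO 1 to 4 and 46, 32, 16 and 30 reads in WT 1 to 4. These reads corresponded to 0.0918, 0.524, 0.721 and 0.260 FPKM in OGTBKO libraries and 1.0003, 0.674, 0.456 and 0.553 FPKM in WT libraries. The lowest values were those of OGTBKO 1 and OGTBKO 4 and the groups overlapped (log2 -0.41, 95% interval -1.01 to 0.18, limma adjusted p = 0.310). Bst1 shares 98 exonic bases with Fbxl5 on the opposite strand, which had 5509 reads over the 8 libraries, and the strand setting of the counting is not given, so reads of these bases cannot be told apart. Cd38, the relative of Bst1 that lies 24.6 kb from it, averaged 4.48 ± 0.780 FPKM in OGTBKO and 6.00 ± 0.641 FPKM in WT tissue (log2 -0.39, adjusted p = 0.0730).

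Of the 5 matrix genes, 0 passed the test, and Dcn had the highest level. Dcn (chromosome 10, 97479609 to 97518143, plus strand) measured 43.6, 62.9, 35.2 and 37.3 FPKM in OGTBKO libraries, against 61.6, 60.4, 45.1 and 46.8 FPKM in WT libraries. OGTBKO 1, OGTBKO 3 and OGTBKO 4 lay below every WT library and OGTBKO 2 above them all (log2 -0.28, 95% interval -0.72 to 0.16, limma adjusted p = 0.356). Lum, its neighbour 47.0 kb away on the same strand (97565128 to 97572703), measured 18.2, 35.5, 22.7 and 12.7 FPKM in OGTBKO libraries, against 40.2, 29.8, 22.2 and 19.8 FPKM in WT libraries. The Lum ranges overlapped broadly (log2 -0.37, 95% interval -1.07 to 0.34, adjusted p = 0.452). Dcn stood at 1.55 to 2.93 times Lum in OGTBKO libraries and at 1.53 to 2.36 times Lum in WT libraries, so the ratio of the pair did not separate the groups.

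Dermatopontin (Dpt, chromosome 1, 164796644 to 164824266, plus strand), a matrix protein that binds decorin, measured 34.3, 64.3, 39.4 and 20.1 FPKM in OGTBKO libraries, against 39.3, 37.6, 30.6 and 29.8 FPKM in WT libraries. OGTBKO 2 was the highest and OGTBKO 4 the lowest of all 8 (log2 0.09, 95% interval -0.57 to 0.76, limma adjusted p = 0.859). Clec3b, which encodes the plasminogen-binding tetranectin (chromosome 9, 123150946 to 123157432, plus strand), showed the same extremes, with 22.5, 33.6, 16.9 and 6.95 FPKM in OGTBKO libraries and 18.4, 23.1, 12.0 and 19.7 FPKM in WT libraries (log2 -0.04, 95% interval -0.97 to 0.90, adjusted p = 0.966). Mfap5, a glycoprotein of elastic microfibrils (chromosome 6, 122505845 to 122529290, plus strand), measured 2.43, 10.2, 4.56 and 2.44 FPKM in OGTBKO libraries, against 5.77, 2.04, 2.37 and 2.61 FPKM in WT libraries. OGTBKO 2 and WT 1 were the highest of their groups, and OGTBKO 3 also lay above WT 2, WT 3 and WT 4 (log2 0.43, 95% interval -0.55 to 1.41, adjusted p = 0.535).

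**Figure D2:**
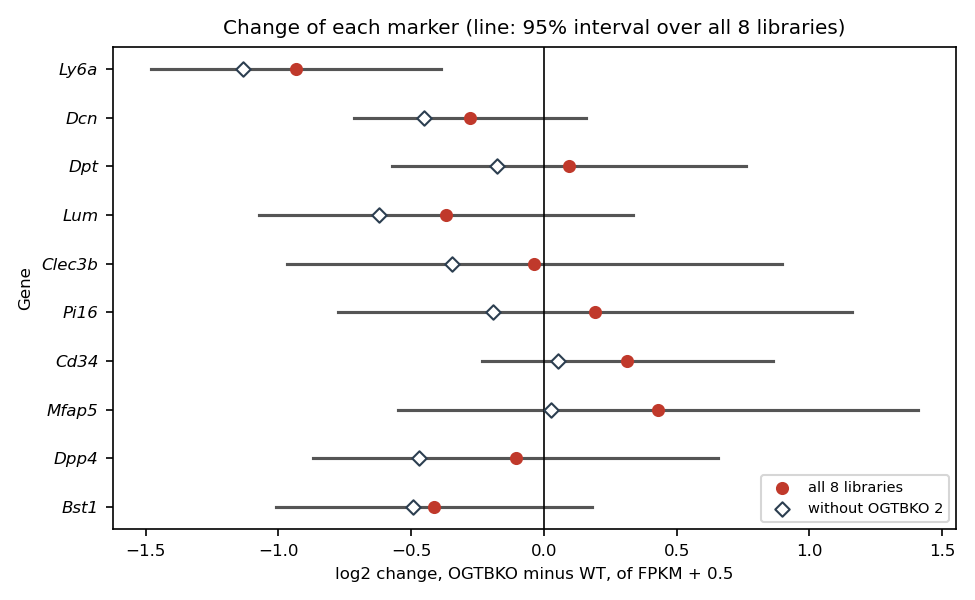
Log2 change of each gene (OGTBKO minus WT, of FPKM + 0.5, horizontal axis), with filled circles and 95% intervals from all 8 libraries and open diamonds from the fit without OGTBKO 2. Only the interval of Ly6a lies wholly on one side of 0 (-1.48 to -0.39), and each diamond lies to the left of its circle. That shift had to follow, because OGTBKO 2 lay above the OGTBKO mean for each gene.

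In level per kilobase Ly6a stood first of the 10 in WT tissue at 83.4 ± 20.9 FPKM (SD, n = 4), ahead of Dcn (53.5 ± 8.72), Dpt (34.3 ± 4.84), Lum (28.03 ± 9.18), Clec3b (18.3 ± 4.64), Pi16 (6.82 ± 1.45), Cd34 (6.25 ± 0.261), Mfap5 (3.20 ± 1.73), Dpp4 (1.45 ± 0.304) and Bst1 (0.671 ± 0.237). In OGTBKO tissue the order was the same but for its first pair, with Dcn at 44.8 ± 12.6 FPKM and Ly6a at 43.8 ± 14.2 FPKM. Among neighbours in the WT order, the ranges of Ly6a and Dcn, of Dpt and Lum, of Lum and Clec3b, and of Pi16 and Cd34 overlapped.

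The library OGTBKO 2 stood at the top of most of these ranges. It was the highest of the 4 OGTBKO libraries in 9 of the 10 genes, Bst1 being the exception, where 21.04% of all genes tested had their highest OGTBKO value there. It was the highest of all 8 libraries in 7 of the 10, where 8.12% of all genes tested were. OGTBKO 4 was the lowest OGTBKO library in 7 of the 10, beside 21.2% of all genes tested. Every one of the 10 was above its own 8-library mean in OGTBKO 2 and 0 of 10 were in OGTBKO 4, with 0 of 10 in WT 3 and 9 of 10 in WT 1 also. The fold between the highest and the lowest OGTBKO library reached 5.04 for Pi16, 4.84 for Clec3b and 4.73 for Dpp4, whereas among WT libraries these 3 spanned 1.57-fold, 1.93-fold and 1.54-fold. The median SD of the log2 level over the 10 genes was 0.64 among OGTBKO and 0.29 among WT libraries, beside 0.18 and 0.22 over all genes tested.

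**Figure D3:**
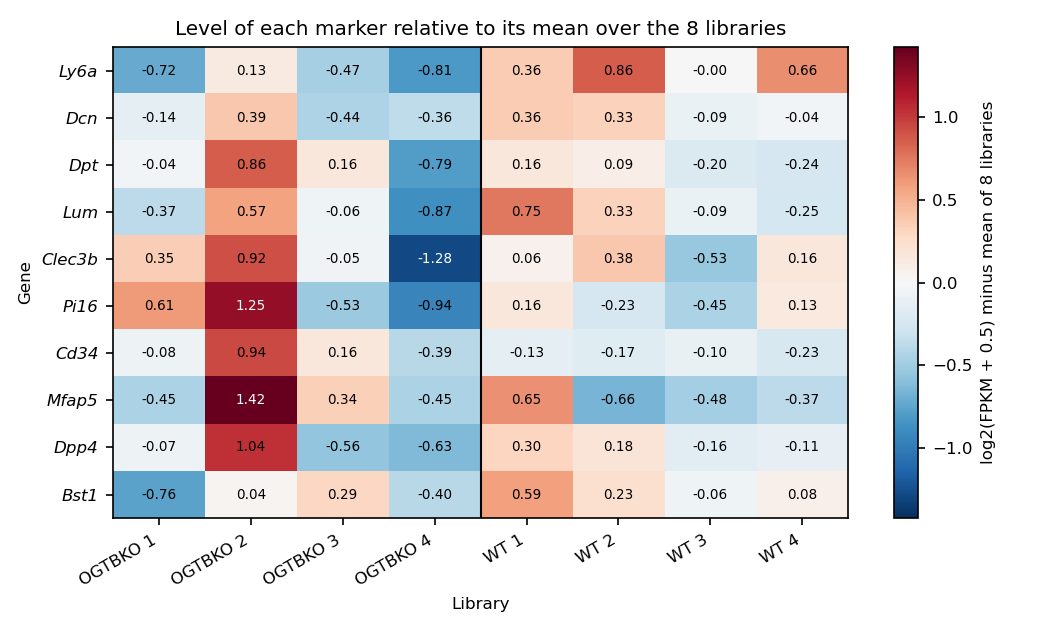
Log2(FPKM + 0.5) of each gene (rows) in each library (columns) relative to its mean over the 8 libraries, on a scale from blue (below) to red (above), with the value printed in each cell. The OGTBKO 2 column is above 0 in all 10 rows and the OGTBKO 4 column below 0 in all 10.

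Without OGTBKO 2 the log2 change was negative in 8 of the 10 genes, beside 50.4% of all genes tested, with a median of -0.40 for the 10 and -0.00287 for all genes. Of the 10, Ly6a alone was called in that fit, in which 8.91% of all genes tested were. Pi16 (log2 -0.19, adjusted p = 0.754) and Dpt (log2 -0.18, adjusted p = 0.655) were negative without that library and positive with it. Dcn (log2 -0.45, adjusted p = 0.0984), Lum (log2 -0.62, adjusted p = 0.175) and Dpp4 (log2 -0.47, adjusted p = 0.156) did not pass, although Dcn and Dpp4 had unadjusted p under 0.05, as did 29.1% of all genes tested in that fit. Without OGTBKO 4, the lowest OGTBKO library for most of these genes, the changes moved the other way: 4 of the 10 were negative, with a median of 0.23 for the 10, and Dpp4 (log2 0.09) and Clec3b (log2 0.38) were positive. In that fit 0 of the 10 were called by limma, 1 had an unadjusted p under 0.05 (Ly6a), and 7.27% of all genes tested were called. The sign of the median change of the 10 therefore depended on which of these 2 libraries was left out.

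Promoter sequence was at hand for 4 genes whose OGTBKO values were highest in OGTBKO 2, Dpp4, Pi16, Cd34 and Dpt, and is shown because each of the 4 genes was highest of all 8 libraries in the same one. Each line gives 300 bases from RefSeq (GRCm38.p6, 250 before to 50 after the annotated start, on the gene's own strand): chr2:62412182-62412481 (minus) for Dpp4, chr17:29318632-29318931 (plus) for Pi16, chr1:194938571-194938870 (plus) for Cd34 and chr1:164796413-164796712 (plus) for Dpt. Capitals mark matches, on either strand, to the TATA box (TATAAA), the CCAAT box (CCAAT), the E-box (CANNTG), the AP-1 site (TGANTCA) and the GC box (GGGCGG), none of which overlapped another.
Dpp4: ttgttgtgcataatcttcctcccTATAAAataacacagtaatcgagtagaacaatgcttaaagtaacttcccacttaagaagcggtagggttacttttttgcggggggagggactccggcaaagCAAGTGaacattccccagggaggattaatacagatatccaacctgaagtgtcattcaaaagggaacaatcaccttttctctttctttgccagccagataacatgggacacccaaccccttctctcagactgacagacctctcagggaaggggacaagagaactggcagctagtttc
Pi16: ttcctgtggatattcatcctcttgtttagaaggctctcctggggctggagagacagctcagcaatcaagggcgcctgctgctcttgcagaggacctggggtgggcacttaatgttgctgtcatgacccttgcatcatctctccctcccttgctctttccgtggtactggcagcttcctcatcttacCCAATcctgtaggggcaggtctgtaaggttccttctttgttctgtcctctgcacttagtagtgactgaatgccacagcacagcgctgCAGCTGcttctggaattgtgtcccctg
Cd34: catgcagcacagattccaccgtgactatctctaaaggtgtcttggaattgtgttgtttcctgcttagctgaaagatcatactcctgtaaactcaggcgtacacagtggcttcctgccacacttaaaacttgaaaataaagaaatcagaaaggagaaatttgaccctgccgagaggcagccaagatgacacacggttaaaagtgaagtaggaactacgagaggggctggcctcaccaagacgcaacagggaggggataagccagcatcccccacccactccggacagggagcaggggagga
Dpt: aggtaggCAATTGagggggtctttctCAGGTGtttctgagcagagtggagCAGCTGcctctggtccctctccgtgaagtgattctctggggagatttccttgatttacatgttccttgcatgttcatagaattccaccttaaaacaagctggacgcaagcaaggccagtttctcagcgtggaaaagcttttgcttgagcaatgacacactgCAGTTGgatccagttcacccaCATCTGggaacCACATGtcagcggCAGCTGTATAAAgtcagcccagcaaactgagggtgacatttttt
The Dpt window held 7 E-boxes, the Dpp4 and Pi16 windows 1 each and the Cd34 window 0, and 72.3% of 32851 RefSeq promoters of this length held at least 1. TATAAA occurred in the Dpt and Dpp4 windows and in 13.6% of promoters, and CCAAT in the Pi16 window and in 37.4%. No AP-1 site (7.81% of promoters) or GC box (35.7%) was found in these 4 windows. The 4 sequences thus shared no motif of the 5 searched. A match describes letters in the window only.

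Other genes of the stroma were often highest in OGTBKO 2 as well. Over all 15 lists of other genes 17 of 139 tested genes were called, 12 higher and 5 lower, beside 15.6% of all genes tested. Of 30 further fibroblast and stromal genes 27 were tested, of which 2 rose (Mgp and Cygb), 1 fell (Svep1) and 24 did not pass, with a median log2 change of 0.10, and of -0.15 without OGTBKO 2. OGTBKO 2 was the highest OGTBKO library for 20 of the 27. Fibrillin 1 (Fbn1) measured 21.9 FPKM in OGTBKO 2 against 4.58 to 7.46 FPKM in the other OGTBKO libraries and 6.12 to 7.86 FPKM in WT libraries. Matrix Gla protein (Mgp), an inhibitor of calcification, averaged 16.2 ± 1.08 FPKM in OGTBKO and 9.23 ± 2.43 FPKM in WT tissue (log2 0.81 ± 0.18, limma adjusted p = 0.0220), a call that ended without OGTBKO 2, OGTBKO 3 or OGTBKO 4 (adjusted p up to 0.0624). Cytoglobin (Cygb) averaged 8.46 ± 1.03 FPKM in OGTBKO and 5.31 ± 0.823 FPKM in WT tissue (adjusted p = 0.0189), a call that ended without OGTBKO 3 (0.0582) and once each library's trend with GC content and length was taken out (0.0905). Svep1, a large cell adhesion protein of the matrix, averaged 3.24 ± 1.146 FPKM in OGTBKO and 8.47 ± 2.91 FPKM in WT tissue (log2 -1.26 ± 0.29, adjusted p = 0.0229), a call that ended without OGTBKO 3, OGTBKO 4, WT 2 or WT 4 (adjusted p up to 0.0666). The Svep1 call also ended without a filter on low values and when FPKM were scaled by the library total (0.0541).

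Of 17 further genes of interstitial progenitors 11 were tested and 0 were called by limma, with 0 at an unadjusted p under 0.05. Their median log2 change was 0.11, and -0.26 without OGTBKO 2, and OGTBKO 2 was the highest OGTBKO library for 9 of the 11. Wnt2, Dact2, Opcml, Creb5, Bmp7 and Has1 averaged under 0.5 FPKM and were not tested. Among 15 genes of committed preadipocytes and regulatory stromal cells, 2 of 14 tested rose, 0 fell and 12 did not pass, with a median of -0.03. Sparcl1, a matrix protein also made by vascular cells, averaged 61.6 ± 3.20 FPKM in OGTBKO and 37.7 ± 2.86 FPKM in WT tissue (log2 0.70 ± 0.09, limma adjusted p = 0.00454), and its call held in all 19 alternatives. Tissue factor (F3), which marks regulatory stromal cells in mouse fat and is not confined to them, averaged 21.7 ± 5.49 FPKM in OGTBKO and 11.9 ± 1.72 FPKM in WT tissue (adjusted p = 0.0294). The F3 call ended without OGTBKO 2, OGTBKO 3, OGTBKO 4, WT 2 or WT 4 (adjusted p up to 0.0845). Pdgfra (log2 -0.14), Col1a1 (0.27), Col1a2 (-0.12) and Col3a1 (-0.08) did not pass.

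Some relatives of the matrix genes rose in OGTBKO tissue. Of 14 further small leucine-rich proteoglycans 7 were tested, of which 2 rose, 0 fell and 5 did not pass, with a median log2 change of 0.17. Tsukushi (Tsku), a secreted member, averaged 10.9 ± 1.95 FPKM in OGTBKO and 3.98 ± 1.56 FPKM in WT tissue (log2 1.40 ± 0.25, limma adjusted p = 0.0103), and its call held in all 19 alternatives. Biglycan (Bgn), the nearest relative of decorin, averaged 25.5 ± 7.03 FPKM in OGTBKO and 15.4 ± 1.38 FPKM in WT tissue (log2 0.67 ± 0.18, adjusted p = 0.0408). The Bgn call ended when any library but OGTBKO 1 was left out (adjusted p up to 0.112). It also ended in other alternatives, among them the GC and length trend taken out (limma adjusted p = 0.0607). Of 11 elastic microfibril genes 9 were tested, of which 2 rose, 0 fell and 7 did not pass. Mfap2, which encodes the protein most like that of Mfap5, averaged 2.48 ± 1.28 FPKM in OGTBKO and 0.761 ± 0.250 FPKM in WT tissue (log2 1.16 ± 0.30, adjusted p = 0.0320). The Mfap2 call also ended when any library but OGTBKO 1 was left out (adjusted p up to 0.0851). It ended as well without a filter on low values and once each library's trend with GC content and length was taken out (limma adjusted p = 0.123). Ltbp4, which binds latent TGF-beta, averaged 20.7 ± 2.07 FPKM in OGTBKO and 13.2 ± 2.18 FPKM in WT tissue (adjusted p = 0.0196), a call that ended without OGTBKO 2 (0.0512) or OGTBKO 3 (up to 0.0628). Of 21 relatives of the 10 genes 10 were tested, of which 1 rose (Mfap2), 2 fell (Ly6e and Dpp8) and 7 did not pass. Of the peptidases related to Dpp4, Dpp8 fell (log2 -0.61 ± 0.12, adjusted p = 0.0142, against 0.0505 after a correction for GC content and length), and Fap, a marker of activated fibroblasts, averaged 1.48 ± 0.411 FPKM in OGTBKO and 1.51 ± 0.276 FPKM in WT tissue (adjusted p = 0.930).

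Gene lists differed in where they stood in OGTBKO 2 and OGTBKO 4. The mean log2 level relative to the 8 libraries was 0.76 in OGTBKO 2 for the 10 genes, 0.62 for the other fibroblast and stromal genes and 0.77 for the other interstitial progenitor genes. It was lower, at 0.16, for the 14 committed preadipocyte and regulatory stromal genes, near the 0.13 of 10 endothelial, 0.07 of 10 pericyte and smooth muscle and 0.14 of 12 adipocyte genes. In OGTBKO 4 it was -0.69 for the 10 genes, -0.49 for the other fibroblast and stromal genes, -0.37 for the other interstitial progenitor genes and -0.07 for the committed preadipocyte and regulatory stromal genes. The endothelial, pericyte and adipocyte lists stood at 0.03, -0.12 and 0.14 in OGTBKO 4. The elastic microfibril genes stood between these groups of lists in OGTBKO 2, at 0.52, and at -0.10 in OGTBKO 4. The small leucine-rich proteoglycans stood at 0.41 in OGTBKO 2 and at 0.11 in OGTBKO 4. Proliferation genes stood at 0.38 in OGTBKO 2 and -0.08 in OGTBKO 4, and leukocyte markers at 0.15 and -0.27. Skeletal muscle markers, which were high in the libraries numbered 1, stood at -2.05 in OGTBKO 2 and -2.09 in OGTBKO 4. Of the pericyte and smooth muscle genes 1 of 10 rose (Kcnj8, log2 0.61, limma adjusted p = 0.0144) and 0 fell. Of 12 adipocyte markers 1 rose (Lep, log2 2.26, adjusted p = 0.0186, and 0.0598 without OGTBKO 3) and 1 fell (Ucp1, log2 -0.999, adjusted p = 0.0113, and 0.0516 with the library total as denominator). Of 9 proliferation genes tested 0 were called by limma and 2 had an unadjusted p under 0.05 (Ccnb1 and Tyms), and OGTBKO 2 was the highest OGTBKO library for 7 of the 9. Mesothelial and tendon markers were low: 7 of 8 mesothelial and 6 of 6 tendon and muscle sheath markers averaged under 0.5 FPKM, with Upk1b, Muc16 and Bnc1 listed at 0 in every library. Of 8 skeletal muscle markers 0 were called by limma and 0 had an unadjusted p under 0.05. Whether the cell make-up of the dissected piece differed between libraries was not tested.

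**Figure D4:**
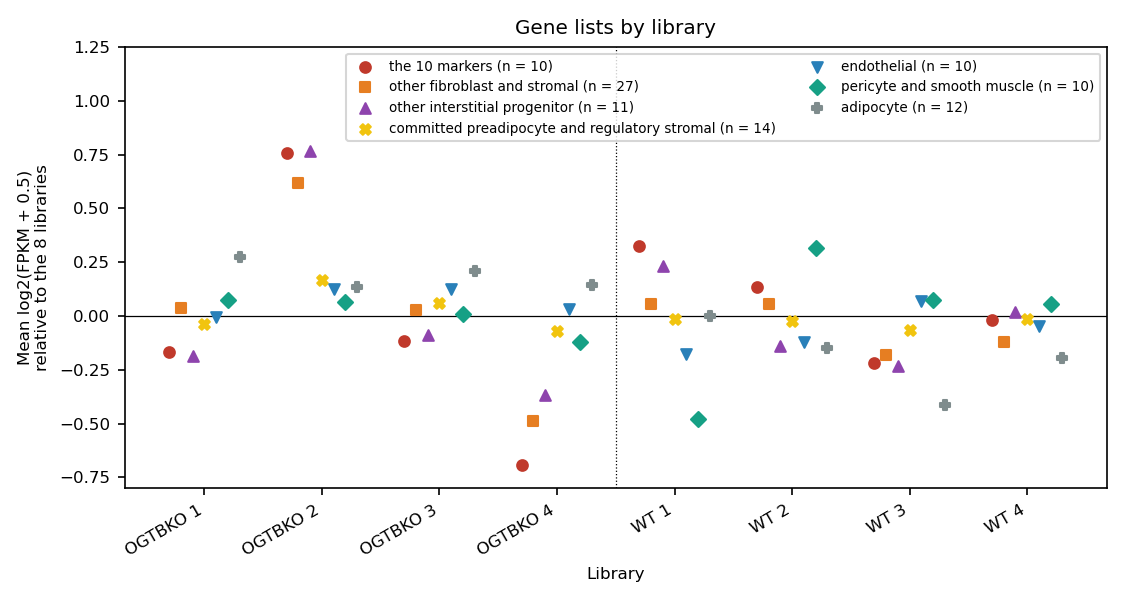
Mean log2(FPKM + 0.5) of the tested genes of 7 lists (vertical axis, relative to the mean of the 8 libraries) in each library (horizontal axis), 1 symbol per list. In OGTBKO 2 the 10 markers, the other fibroblast and stromal list and the other interstitial progenitor list sit between 0.62 and 0.77, and the committed preadipocyte, endothelial, pericyte and adipocyte lists between 0.07 and 0.16. The elastic microfibril (0.52), small leucine-rich proteoglycan (0.41) and proliferation (0.38) lists, which are not drawn, lay between these ranges.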

How the data were processed

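RNA from whole brown fat was sequenced after NEBNext Ultra library preparation, per the labels' protocols. Per the submitters' processing notes, the tools included featureCounts 1.5.0-p3 and HISAT2 2.0.5, with the mm10 build; strand use is not given in the sources used here. The authors deposited FPKM values, 1 column per library, so the main test was not a count test. FPKM times gene length gave whole reads (tolerance 0.001), which gave 13393962 to 15897920 reads in genes per library. For a 1-kb gene, 1 read gave 0.0556 to 0.0945 FPKM.

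The 4 OGTBKO and 4 WT libraries were compared with limma 3.58.1 in R 4.3.3 on log2(FPKM + 0.5), for 13171 genes with a mean of at least 0.5 FPKM, with Benjamini-Hochberg adjustment over all of them. The pseudocount makes fold changes of low genes too small. Chi-square tests of reads between libraries of a group gave 17.6 to 111 per degree of freedom, so none was counted as a duplicate. The fit was tested on simulated data. The markers and the 15 lists were chosen with earlier results of these data known. Named genes are the 10 markers, Ogt, and each list's called genes and up to 4 others of smallest p. Pdgfra, the collagens, Fbn1, Fap, Ly6c2, Ly6i and the genes said to be too low were named outside that rule, after their values were seen. Some listed genes are not reported here. Alternatives changed the pseudocount, filter, denominator, weights, GC and length trend and replicate block, used limma-voom on the recovered reads (2322 genes called, against 2050), and left out each library.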

Additional observations from a re-analysis of the deposited data

Results flagged for a closer look

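In 56 groups of 4 libraries, each gene's extreme value was set against the other 3, and 4 stood apart by Dixon's criterion at 95%, where chance gives about 1 group in 20. All 4 were values of WT 1, the WT library with the highest summed skeletal muscle markers (487 FPKM). Mfap5 was 5.77 FPKM in WT 1, while the remaining WT libraries had 2.04 to 2.61 FPKM. Cygb was 4.08 FPKM there against 5.64 to 5.84 FPKM in the others. Ltbp4 was 10.01 FPKM in WT 1 against 14.1 to 14.7 FPKM in the others, and Ly6e was 44.7 FPKM against 57.9 to 58.2 FPKM. The part of muscle in these values was not tested.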

How the results depend on the processing

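Of the 10 markers 1 was called, beside 15.6% of all genes tested. By limma 0 were called without a filter on low values (4.58% of all genes) and with the library total as denominator (9.37%). Without both libraries numbered 1, an alternative chosen after seeing the data, 0 were called as well (14.6%). In each of these alternatives 1 marker had an unadjusted p under 0.05. Leaving out single libraries gave 0 to 1, beside 5.27% to 16.1% of all genes. The other 9 markers were called in 0 alternatives, and Dpp4, Pi16, Dcn, Dpt and Clec3b changed sign in at least 1. Of the 139 other listed genes tested 17 were called (12 higher, 5 lower), beside 15.6% of all genes. Without a filter 9 of 181 were called (4.58% of all genes), and with array weights 32 of 139 (26.7%). Leaving out single libraries gave 6 to 23 of the listed genes, beside 5.27% to 16.1% of all genes. With the library total as denominator 12 were called (11 higher, 1 lower), beside 9.37% of all genes. The calls of Mgp, Svep1, Bgn, Ly6e, Cdh5, S100a8 and Ucp1 ended with that denominator. With the replicate block 11 were called (6.74% of all genes) and with the block and the GC and length trend removed 8 (3.95%). Whether the replicate numbers pair the samples is not given in the labels. Deviations of same-numbered libraries correlated at 0.22, 0.17, 0.01 and -0.01, and 2 of 4 OGTBKO libraries correlated best with their own number. These correlations cannot decide whether samples were paired. The Ly6a call held under the block (1 marker called). With 4 libraries a group, and 212 Bst1 reads in all, small changes were not detectable. The causes were not tested.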
